A study of Mus musculus with 6 samples.

Results

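The genes that build sterols and fatty acids were followed in splenic T cells of 6 mice, 3 treated with rapamycin and 3 with phosphate-buffered saline (PBS). The set held 35 genes chosen by symbol, 21 of a sterol branch and 14 of a fatty acid branch, and 34 of them were measured among 19938 genes: 20 of the sterol branch and all 14 of the fatty acid branch. Each gene was represented by the probe set that names it alone, and where several did, by the one with the highest mean over the 6 arrays. Acat2 was not analysed here.

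All 6 mice were B6D2F1/J recipients, an F1 hybrid with a B6 parent, that had been lethally irradiated and given B6 bone marrow depleted of T cells. The rapamycin mice received 1.5 mg/kg into the peritoneum every other day up to day 10, and the PBS mice received PBS on the same schedule. Some recipients in the protocol were also given spleen cells of B6 mice, and which of these 6 mice were is not in the labels. Spleens were taken on day 10, and CD3+ cells were sorted for 1 whole-transcript array per mouse. Values are log2 expression, every difference is rapamycin minus PBS, and the 3 values given for a group are replicates 1, 2 and 3 in that order.

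Cells make cholesterol from acetyl-CoA through the mevalonate pathway, squalene and lanosterol, and they make fatty acids from the same precursor through malonyl-CoA, followed by elongation and desaturation. Both chains are under the transcription factors SREBP2 and SREBP1, encoded by Srebf2 and Srebf1, which INSIG proteins hold in the endoplasmic reticulum while sterols are plentiful. Dividing T cells need both products for new membrane. Rapamycin inhibits the kinase complex mTORC1, which is known to promote SREBP activity, in part by keeping lipin 1 out of the nucleus.

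SREBPs act at sterol regulatory elements, usually with NF-Y, which binds the CCAAT box, and with Sp1, which binds GC boxes. Promoter sequence from RefSeq (GRCm38.p6) was matched by symbol for 27 of the 34 genes, and the 250 bases before each annotated start were searched on both strands. No entry was matched for Fdps, Fdft1, Sqle, Stard4, Scd1, Scd2 and Fads1. The 3 promoters shown belong to the first enzyme of the mevalonate chain in the set, to the sterol regulator and to the fatty acid synthase. They are written 5′ to 3′ on the strand of the gene, with capitals for the element TCACNCCAC and for CCAAT, each in either orientation.
Hmgcs1, chr13:119690101-119690350, plus strand: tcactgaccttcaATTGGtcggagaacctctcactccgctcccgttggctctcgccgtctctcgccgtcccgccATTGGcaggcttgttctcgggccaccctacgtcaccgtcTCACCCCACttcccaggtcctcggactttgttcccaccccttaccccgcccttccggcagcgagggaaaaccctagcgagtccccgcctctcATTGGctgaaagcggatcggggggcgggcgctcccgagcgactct
Srebf2, chr15:82147019-82147268, plus strand: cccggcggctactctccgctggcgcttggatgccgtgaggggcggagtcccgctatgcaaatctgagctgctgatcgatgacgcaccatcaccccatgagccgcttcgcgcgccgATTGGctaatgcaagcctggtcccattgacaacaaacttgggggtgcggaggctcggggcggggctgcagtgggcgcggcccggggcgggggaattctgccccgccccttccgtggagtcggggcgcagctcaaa
Fasn, chr11:120824548-120824797, minus strand: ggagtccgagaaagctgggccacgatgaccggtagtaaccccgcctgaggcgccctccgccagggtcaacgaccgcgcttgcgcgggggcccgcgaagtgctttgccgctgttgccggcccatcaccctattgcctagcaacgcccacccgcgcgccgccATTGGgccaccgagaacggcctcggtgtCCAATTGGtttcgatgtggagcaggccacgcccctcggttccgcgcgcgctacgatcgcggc

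The Hmgcs1 promoter held the element as TCACCCCAC, from 137 to 129 bases before the start, together with 3 CCAAT boxes in reverse orientation. The Srebf2 promoter held 1 CCAAT box, from 135 to 131 bases before the start, and the Fasn promoter held 3, of which 2 overlap each other. A CCAAT box stood before at least 1 start of all 16 sterol genes with an entry and of 6 of 11 fatty acid genes, against 38.8% of 15614 array genes with an entry. Some genes have several annotated starts. Counted by start, 16 of 19 sterol promoters held the box, against 34.5% of 19177. The GC box GGGCGG stood before 15 of the 16 sterol genes and 7 of the 11 fatty acid genes, against 49.3% of all. TCACNCCAC was found before 1 of the 16 sterol genes, Hmgcs1, and 0 of the 11 fatty acid genes, against 1.20% of all, and the E-box CACGTG before 4 and 1, against 8.11%. A match here describes letters in this window and does not show a bound site. Each motif was searched in 1 fixed spelling, with any base at N. A promoter without a match is therefore not shown to lack the element in another spelling.

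The comparison asked how these transcripts differ in T cells when the recipient is given rapamycin. Most members of both branches measured slightly lower with rapamycin and no member passed the test. In the sterol branch 17 of 20 genes had a negative difference, with a median of -0.12, and in the fatty acid branch 13 of 14, with a median of -0.13. Over all 19938 genes 55.3% had a negative difference and the median was -0.012. With limma and Benjamini-Hochberg adjustment over all genes, 0 of 34 members had an adjusted p under 0.05, where 0.00502% of all genes did. At an unadjusted p under 0.05, 3 sterol and 2 fatty acid genes were lower, or 15% and 14.3%, against 3.07% of all genes, and 0 members were higher, against 1.6%. The groups did not overlap, with rapamycin lower, for 3 sterol and 4 fatty acid genes, where this held for 6.28% of all genes, and with rapamycin higher for 0 members, against 3.14%. With 3 arrays a group the median standard error of a difference was 0.103 in the sterol branch and 0.0978 in the fatty acid branch, close to the size of the typical difference.

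**Figure D1:**
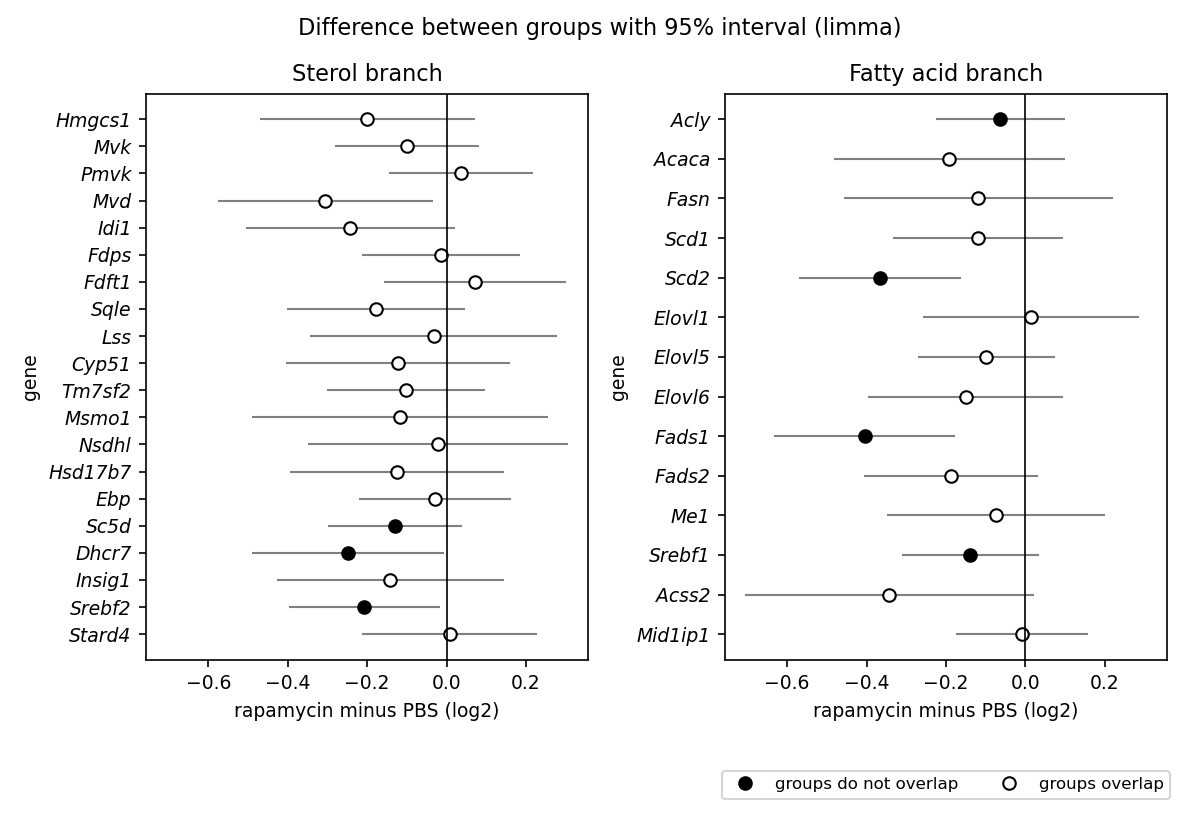
Difference between the groups for each of the 34 measured genes in pathway order (x axis, rapamycin minus PBS on the log2 scale, with the 95% interval from limma). Filled points are the 7 genes whose groups did not overlap. Points lie left of 0 for 17 of 20 sterol and 13 of 14 fatty acid genes, and the intervals of Mvd, Dhcr7, Srebf2, Scd2 and Fads1 lie wholly left of 0 before adjustment over all genes.

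Both SREBP genes measured lower with rapamycin without overlap between the groups, as did 6.28% of all genes. Srebf2, the sterol regulator, measured 9.73, 9.52 and 9.68 in the rapamycin mice, against 9.88, 9.82 and 9.84 in the PBS mice. The PBS mice lay close together, and the lowest of them was above the highest rapamycin mouse. The difference was -0.21 (SE 0.083, 95% interval -0.40 to -0.017, limma adjusted p = 0.9998). Srebf1, the regulator of fatty acid genes, measured 8.37, 8.40 and 8.36 with rapamycin, against 8.43, 8.55 and 8.57 with PBS. The difference was -0.14 (SE 0.076, 95% interval -0.31 to 0.034, limma adjusted p = 0.9998), with an interval that holds 0. Insig1, which retains SREBPs and is itself an SREBP target, measured 8.79, 8.91 and 9.18 with rapamycin and 8.98, 9.04 and 9.29 with PBS. Here the groups overlapped, since rapamycin replicate 3 lay above PBS replicates 1 and 2, and the difference of -0.14 was -0.048 without PBS replicate 3.

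In the mevalonate part of the sterol branch the largest difference was that of Mvd, the decarboxylase that makes isopentenyl pyrophosphate. It measured 7.55, 7.49 and 7.75 with rapamycin, against 8.04, 7.67 and 7.99 with PBS, and PBS replicate 2 lay inside the rapamycin range. The difference was -0.30 (SE 0.12, interval -0.58 to -0.034, limma adjusted p = 0.9998). Idi1, which interconverts the C5 isoprenoid units, measured 7.06, 7.14 and 7.48 with rapamycin and 7.47, 7.42 and 7.52 with PBS. Replicates 1 and 2 of the rapamycin group lay below all PBS mice, and replicate 3 lay among them. The other Idi1 probe set measured 7.16, 7.17 and 7.49 with rapamycin and 7.40, 7.41 and 7.45 with PBS. There rapamycin replicate 3 lay above all PBS mice, and the difference was -0.15 (SE 0.10). Hmgcs1, which makes HMG-CoA, measured 8.59, 8.42 and 8.75 with rapamycin and 8.63, 8.76 and 8.97 with PBS, with overlapping groups and a difference of -0.20 (SE 0.12). Without 1 mouse these values moved: Hmgcs1 was -0.11 without PBS replicate 3 or rapamycin replicate 2, and Idi1, at -0.24 (SE 0.11) over all mice, was -0.16 without rapamycin replicate 1. The mevalonate kinase Mvk differed by -0.10, the next kinase Pmvk by 0.036 and the farnesyl pyrophosphate synthase Fdps by -0.014, each with an interval that holds 0.

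From squalene synthesis to the isomerase step the groups overlapped for every enzyme measured. Fdft1, the squalene synthase, differed by 0.071 (SE 0.10) in the probe set used and by -0.21 (SE 0.19) in its other probe set, so its direction depends on the probe set. Sqle, the squalene epoxidase, measured 7.84, 7.66 and 7.94 with rapamycin and 7.93, 7.93 and 8.11 with PBS, a difference of -0.18 (SE 0.10) that was -0.10 without rapamycin replicate 2. Lss, which closes the ring to lanosterol, differed by -0.033 (SE 0.14). Cyp51, the lanosterol demethylase, measured 7.64, 7.73 and 8.0 with rapamycin and 7.74, 7.90 and 8.09 with PBS, and its groups overlapped. Its difference of -0.12 was -0.032 without PBS replicate 3 and -0.23 without rapamycin replicate 3. Differences between -0.12 and -0.022 were found for the sterol reductase Tm7sf2, the methyl oxidase Msmo1 and the dehydrogenase Nsdhl of demethylation, the ketone reductase Hsd17b7 and the isomerase Ebp, each with an interval that holds 0.

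The last steps to cholesterol held both sterol enzymes whose groups did not overlap. Dhcr7, which makes cholesterol from its 7-dehydro precursor, measured 9.24, 9.48 and 9.52 with rapamycin, against 9.61, 9.56 and 9.81 with PBS. All rapamycin mice were below all PBS mice, though the nearest of them almost touched, and the difference was -0.25 (SE 0.11, interval -0.49 to -0.0061, limma adjusted p = 0.9998), or -0.16 without rapamycin replicate 1. Sc5d, the desaturase before it, measured 8.59, 8.47 and 8.54 with rapamycin and 8.65, 8.65 and 8.69 with PBS, a difference of -0.13 (SE 0.073). Stard4, a carrier that moves cholesterol between membranes, differed by 0.0083 (SE 0.096).

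**Figure D2:**
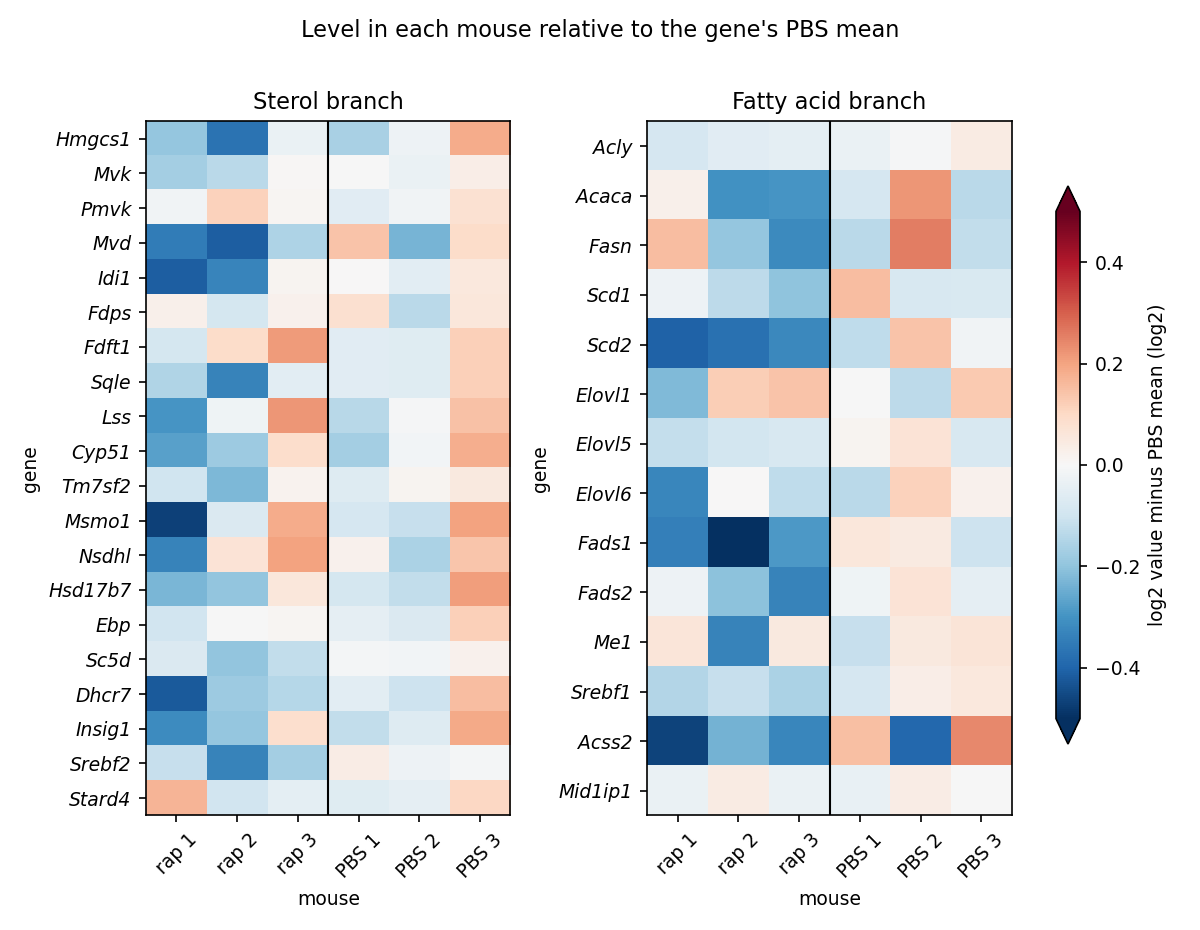
Level of each measured gene in each mouse as the log2 value minus that gene's PBS mean (colour, blue lower and red higher, with values beyond 0.5 shown at the end of the scale). Columns are the 3 rapamycin mice (rap) and the 3 PBS mice, and rows follow the pathways. In the sterol branch the PBS 3 column is above the PBS mean in every row but that of Srebf2, and the rap 1 column is below it in 18 of 20, while in the fatty acid branch Scd2 and Fads1 are blue in all 3 rapamycin mice.

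In the fatty acid branch the desaturases Scd2 and Fads1 had the smallest p values of the whole set. Scd2, a stearoyl-CoA desaturase that makes monounsaturated fatty acids, measured 9.98, 10.01 and 10.06 with rapamycin, against 10.26, 10.53 and 10.37 with PBS. The rapamycin mice lay close together and all below the PBS mice, and the difference of -0.37 (SE 0.089, interval -0.57 to -0.16, limma adjusted p = 0.8145) is a level of 0.776 times that with PBS. Fads1, the delta-5 desaturase of polyunsaturated fatty acids, measured 8.16, 7.91 and 8.21 with rapamycin, against 8.56, 8.54 and 8.40 with PBS. Its groups did not overlap, and its difference of -0.40 (SE 0.10, interval -0.63 to -0.18, limma adjusted p = 0.8145) was the largest of the 34, a level of 0.756 times that with PBS. Over the alternatives tried, the difference of Scd2 stayed between -0.43 and -0.29 and that of Fads1 between -0.46 and -0.31, with adjusted p values of at least 0.2404.

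Their relatives measured low. Scd1, the other stearoyl-CoA desaturase of the set, measured 5.11, 5.01 and 4.94 with rapamycin and 5.29, 5.06 and 5.06 with PBS. Fads2, the delta-6 desaturase, measured 5.39, 5.21 and 5.08 with rapamycin and 5.39, 5.48 and 5.37 with PBS. Both, and the malic enzyme Me1 with group means of 5.04 with rapamycin and 5.12 with PBS, lay under the array medians, which ran from 6.026 to 6.171, and detection was not tested. Scd1 and Scd2 are close paralogs, and whether their probes tell them apart could not be checked here. Values near background are compressed on these arrays. Differences of -0.12 for Scd1, -0.19 for Fads2 and -0.074 for Me1 may therefore understate any true one. In its other probe set Me1 differed by 0.013 (SE 0.098), so its direction depends on the probe set.

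Enzymes that supply and join the carbon units were less separated. Acly, which makes cytosolic acetyl-CoA from citrate, measured 9.91, 9.93 and 9.94 with rapamycin and 9.95, 9.98 and 10.03 with PBS. The groups did not overlap, yet the difference was only -0.063 (SE 0.071). Acss2, which makes acetyl-CoA from acetate, measured 6.79, 7.02 and 6.93 with rapamycin and 7.40, 6.86 and 7.50 with PBS, and PBS replicate 2 lay within the rapamycin range. Its difference of -0.34 (SE 0.16) had an interval of -0.71 to 0.022, and it was -0.54 without PBS replicate 2 and -0.22 without PBS replicate 3.

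The carboxylase and the synthase of the chain followed single mice more than groups. Acaca, the acetyl-CoA carboxylase, measured 8.69, 8.37 and 8.37 with rapamycin and 8.59, 8.89 and 8.53 with PBS. Fasn, the synthase, measured 9.61, 9.26 and 9.14 with rapamycin and 9.32, 9.71 and 9.33 with PBS. In the probe sets used, rapamycin replicate 1 and PBS replicate 2 were the highest mouse of their group in both genes. The differences were -0.19 (SE 0.13) and -0.12 (SE 0.15). Without PBS replicate 2 they were -0.081 for Acaca and 0.010 for Fasn, and without rapamycin replicate 1 they were -0.30 for Acaca and -0.25 for Fasn. The other Acaca probe set measured 7.53, 7.54 and 7.42 with rapamycin and 7.71, 7.87 and 7.39 with PBS. There PBS replicate 2 was again highest, but rapamycin replicate 2 lay slightly above replicate 1, and the difference was -0.155 (SE 0.12). Among the elongases, which lengthen finished fatty acids, Elovl6 differed by -0.15, Elovl5 by -0.098 and Elovl1 by 0.014, and Mid1ip1, an activator of acetyl-CoA carboxylase, differed by -0.0088.

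**Figure D3:**
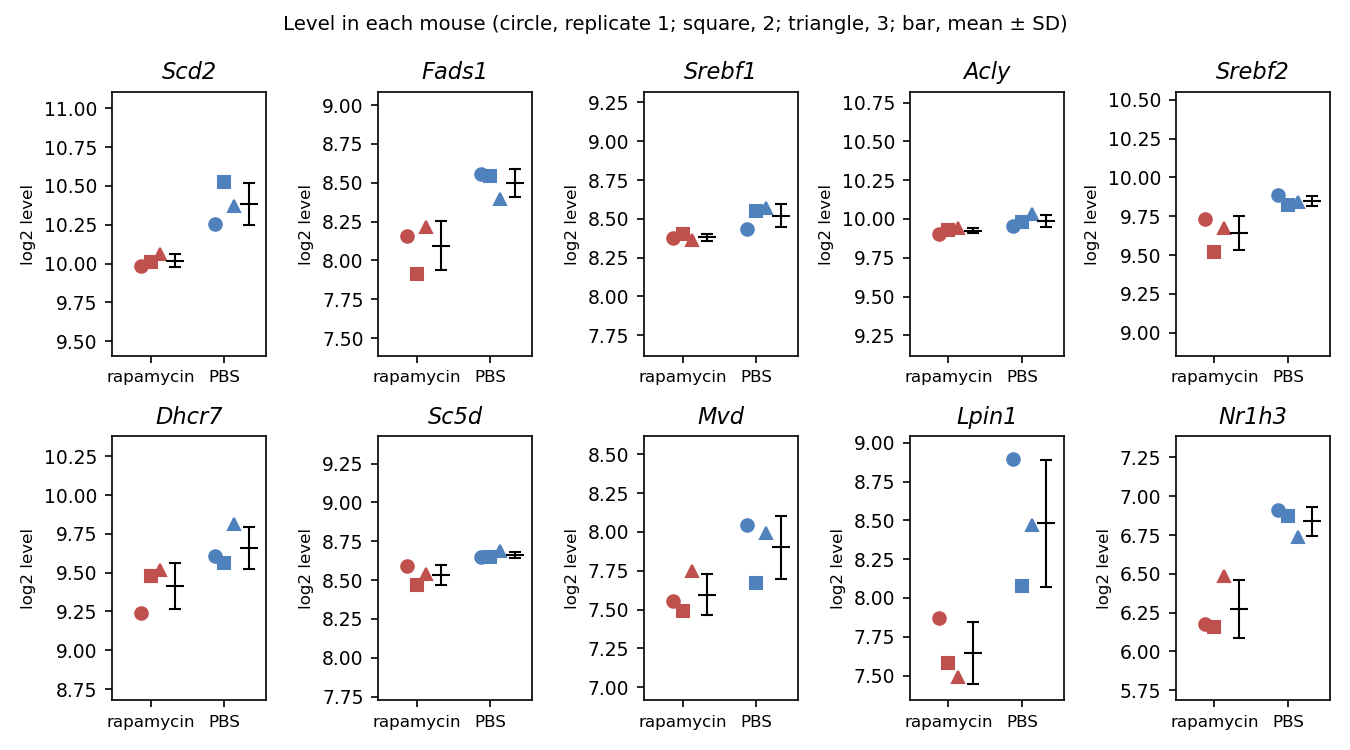
Log2 level in each mouse (y axis, the same log2 span in each panel) for the 7 members whose groups did not overlap, for Mvd, and for Lpin1 and Nr1h3, which belong to the wider lipid lists. Red symbols are rapamycin mice, blue symbols PBS mice, and black bars the mean ± SD (n = 3 each). In each panel but that of Mvd the red symbols all lie below the blue ones.

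The sterol genes varied together from mouse to mouse within each group. Rapamycin replicate 3 was the highest rapamycin mouse for 15 of 20 sterol genes (75%, against 27.2% of all genes), and PBS replicate 3 the highest PBS mouse for 17 of 20 (85%, against 30.6%). Both held at once for 14 of 20 genes, or 70%, against 9.73% of all genes. Rapamycin replicate 1 was the lowest rapamycin mouse for 12 of the 20 (60%, against 36.9%). In a wider list of 26 measured genes of sterol handling, rapamycin replicate 1 was lowest for 19 (73.1%) and PBS replicate 3 highest for 14 (53.8%), while both replicates 3 were highest at once for 4 (15.4%). Srebf2 did not share the order, with rapamycin replicate 1 and PBS replicate 1 highest. In the fatty acid branch rapamycin replicate 3 and PBS replicate 3 were each highest for 5 of 14 genes (35.7%). These genes were measured on the same arrays, so the counts describe 6 mice and are not independent of each other.

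The mean of the sterol branch lay -0.19, -0.15 and 0.020 from the PBS mean in the rapamycin mice, against -0.044, -0.067 and 0.11 in the PBS mice. Rapamycin replicate 3 thus lay above PBS replicates 1 and 2, and the groups overlapped. The median difference of -0.12 was -0.040 without PBS replicate 3, -0.068 without rapamycin replicate 1 and -0.19 without rapamycin replicate 3, and negative differences numbered 13, 14 and 17 of 20. The mean of the fatty acid branch lay -0.14, -0.18 and -0.17 from the PBS mean in the rapamycin mice, against -0.029, 0.030 and -0.0017 in the PBS mice. Here no rapamycin mouse reached a PBS mouse, and leaving out any 1 mouse left 12 or 13 of 14 differences negative. Whether the branches differ from each other was not tested.

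Levels of markers of other cells differed between the mice. Of the 21 neutrophil markers, all measured, the list mean lay 0.82, -0.14 and 0.27 from the PBS mean in the rapamycin mice, against 0.49, 0.13 and -0.62 in the PBS mice. PBS replicate 3, the mouse with the highest sterol mean, was lowest in these markers, and rapamycin replicate 1, with the lowest sterol mean, was highest. The other rapamycin mice did not keep this opposite order, since replicate 2 was below replicate 3 in both lists. Between the groups, 19 of the 21 neutrophil markers were higher with rapamycin, with a median difference of 0.43 over the list. The 2 lower ones were Cebpe (-0.043) and Csf3r (-0.17). At an unadjusted p under 0.05 in limma, 1 marker was higher (4.76%, against 1.6% of all genes) and 0 lower. The summed level of these markers on the linear scale was 17744 to 28492 with rapamycin and 10989 to 23274 with PBS. Defining genes such as S100a8 (means of 11.03 with rapamycin and 10.53 with PBS) and Ltf (9.31 and 8.76, in the same order) lay above the array medians. With the neutrophil mean as a covariate the sterol median was -0.065 and that of the fatty acid branch -0.14. In bulk RNA fewer cells of a type and less RNA per cell cannot be told apart.

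The 16 macrophage markers, all measured, had the order of the sterol branch among the rapamycin mice. Their list mean lay -0.44, -0.43 and 0.051 from the PBS mean in the rapamycin mice, against 0.24, -0.078 and -0.16 in the PBS mice. Rapamycin replicate 3 was the highest rapamycin mouse for 12 of 16 markers (75%, the same share as in the sterol branch), and PBS replicate 3 the highest PBS mouse for 3 of 16 (18.8%, against 85% in the sterol branch). Of the 16, 12 were lower with rapamycin and 4 higher, with a median difference of -0.21. At an unadjusted p under 0.05 in limma, 4 were lower (25%, against 3.07% of all genes) and 1 higher (6.25%, against 1.6%). Spic differed most, at 5.77, 5.84 and 5.50 with rapamycin against 7.51, 6.70 and 6.93 with PBS (limma adjusted p = 0.4078). On the linear scale the summed level was 9060 to 13638 with rapamycin and 9722 to 11207 with PBS. High genes weigh most in this sum, such as Lyz2, with means of 12.49 with rapamycin and 12.21 with PBS. The part of these cells in the sterol values was not tested.

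T cell identity was checked on 11 of 12 markers. Cd3e averaged 12.84 ± 0.08 with rapamycin and 12.87 ± 0.05 with PBS (SD, n = 3 each), and the summed level of the list was 33151 to 38760 with rapamycin and 33388 to 38387 with PBS. Of the 11, 7 were lower with rapamycin and 4 higher, with a median difference of -0.021. At an unadjusted p under 0.05 in limma, 1 was lower (9.09%, against 3.07% of all genes) and 0 higher. That marker was Cd5, at 10.69, 10.67 and 10.54 with rapamycin against 10.76, 10.85 and 10.87 with PBS. Its groups did not overlap, as for 6.28% of all genes with rapamycin lower. PBS replicate 3 was the highest PBS mouse for all 11 T cell markers, as for the sterol genes, while rapamycin replicate 3 was highest for 0 of 11. The B cell markers (11 of 12 measured) summed to 580 to 667 with rapamycin and 635 to 691 with PBS, and the erythroid markers (11 of 14) to 849 to 1118 with rapamycin and 778 to 894 with PBS.

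**Figure D4:**
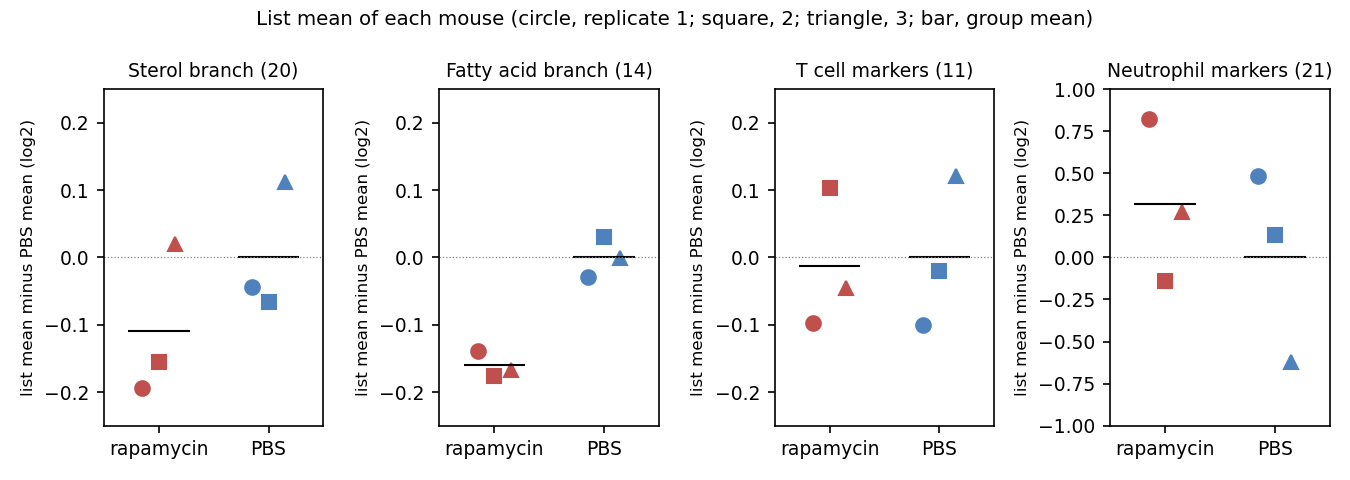
Mean of each gene list in each mouse minus the mean of the PBS mice (y axis, log2, with a wider scale for the neutrophil markers). Symbols mark replicates 1 to 3 in rapamycin mice (red) and PBS mice (blue), and bars the group means. The groups overlap in the sterol branch, whose highest value is PBS replicate 3 at 0.11, and are apart in the fatty acid branch, and neutrophil markers run from -0.62 to 0.82.

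Other genes of lipid metabolism did not share the common sign. Of 37 further genes of sterol handling 26 were measured, 14 negative and 12 positive, with a median difference of -0.016. Of 47 further genes of fatty acid and glycerolipid synthesis 44 were measured, 24 negative and 20 positive, with a median of -0.0050. In limma's test 0 genes of either list passed, and 3 genes of each were lower at an unadjusted p under 0.05, or 11.5% and 6.82% against 3.07% of all genes.

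A pair of genes that stand on both lists had the smallest p in each. Nr1h3, which encodes the sterol-sensing receptor LXR-alpha, an activator of Srebf1, measured 6.18, 6.16 and 6.49 with rapamycin, against 6.91, 6.87 and 6.73 with PBS. The groups did not overlap, and the difference was -0.57 (SE 0.11, limma adjusted p = 0.7471). Lpin1, which encodes the phosphatidate phosphatase lipin 1 that mTORC1 phosphorylates, measured 7.87, 7.58 and 7.49 with rapamycin, against 8.90, 8.08 and 8.47 with PBS. Its difference of -0.83 (SE 0.19, limma adjusted p = 0.8145) was larger than that of any of the 34 synthesis genes, again without overlap.

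Next by p were Mylip, an LXR target that degrades lipoprotein receptors, at -0.29 (SE 0.12), and Hacd3, a dehydratase of fatty acid elongation, at -0.19 (SE 0.078). Hacd3 measured 8.77, 8.78 and 8.74 with rapamycin against 8.86, 9.04 and 8.97 with PBS. Its groups did not overlap, as for 6.28% of all genes with rapamycin lower, while those of Mylip did. Nr1h3 is also abundant in macrophages. Rapamycin replicate 3 was the highest rapamycin mouse in Nr1h3, as in 12 of the 16 macrophage markers, while in Spic it was the lowest. In rapamycin replicates 1 and 2 Nr1h3 lay near the array medians, which ran from 6.026 to 6.171. The part of these cells in the Nr1h3 and Lpin1 differences was not tested.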

How the data were processed

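The authors deposited log2 expression values of 35556 probe sets on 6 arrays, made with Affymetrix Expression Console and RMA per the submitters' processing notes; no version or probe library is stated there. RMA equalises the arrays' distributions, so a shift shared by most genes cannot be seen. Groups and replicate numbers came from the titles, which call the mice biological replicates. The platform's probe table gave 1 symbol to 21789 probe sets, several to 1621 and listed no gene for 12146, and 19938 genes were tested.

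The test was limma 3.58.1 in R 4.3.3 (lmFit and eBayes, 8.44 degrees of freedom), with Benjamini-Hochberg adjustment over all genes, calls at an adjusted p under 0.05 and 95% intervals, and was tested on simulated data. All p values are two-sided. Members and lists were chosen by symbol with earlier results of these data known. Among members, values per mouse are given for those whose groups do not overlap, the 5 smallest p of each branch and 11 preset genes. Of the wider lists the 3 genes with the smallest p are named. The 15 alternatives changed weights, prior, filter, probe sets, scaling, covariates or mice. The number of arrays limits the precision. Figures used Python 3.11.15 with matplotlib 3.10.9.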

Additional observations from a re-analysis of the deposited data

How the results depend on the processing

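Under all 15 alternatives 0 sterol members, 0 fatty acid members and 0 of the 68 further lipid genes (53 of them measured without the lowest 50% of genes) passed limma's test, against 5 members at an unadjusted p under 0.05 in the main setting. The lowest adjusted p of any member was 0.2404. The count over all genes, 1 in the main setting, was 0 with the replicate block, 3 with the neutrophil mean as a covariate and 0 to 7 when 1 mouse was left out. Unadjusted p values under 0.05 numbered 932 of 19938 genes. Without the lowest 50% of genes they numbered 498 of 9969, so that count is over fewer genes. Over all 19938 genes they numbered 1481 with array weights, 1551 with the neutrophil covariate and 1545 without rapamycin replicate 1. Same-numbered mice had correlations of their deviations of 0.0861, -0.192 and 0.195, so the numbers were not taken to pair the mice.

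The sterol median of -0.12 lay between -0.19 and -0.040 with 1 mouse left out, and was -0.073 with array weights and -0.065 with the neutrophil covariate. The fatty acid median of -0.13 lay between -0.18 and -0.088 with 1 mouse left out. Direction held for 22 of 34 members in every alternative that gave a value; Scd1, Fads2 and Me1 gave none without the lowest 50% of genes. It turned for Lss, Nsdhl, Stard4 and Mid1ip1 with array weights (0.068, 0.061, -0.027 and 0.0018) and, with Ebp, under the neutrophil covariate (0.055, 0.065, -0.0010, 0.0041 and 0.014 for Ebp). Mid1ip1 was 0.0017 with arrays centred on their medians and 0.0020 with quantile normalization, under which Fdps was 0.0058, and Fdft1 was -0.071 with the mean of its probe sets. With 1 mouse left out the ranges that cross 0 were -0.16 to 0.098 for Lss, -0.13 to 0.13 for Nsdhl, -0.073 to 0.061 for Stard4, -0.033 to 0.010 for Mid1ip1, -0.065 to 0.029 for Ebp, -0.082 to 0.026 for Fdps, -0.27 to 0.057 for Msmo1, -0.0032 to 0.074 for Pmvk, -0.052 to 0.13 for Elovl1, -0.14 to 0.056 for Me1 and -0.25 to 0.010 for Fasn. The cause was not tested.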
